A study of Caenorhabditis elegans with 6 samples.

Results

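A set of 9 microRNAs that earlier work in the nematode Caenorhabditis elegans has tied to ageing, starvation or larval arrest, other than miR-71, are described here: cel-miR-34-5p, cel-miR-228-5p, cel-miR-235-3p, cel-miR-238-3p, cel-miR-239a-5p, cel-miR-239b-5p, cel-miR-246-3p, cel-miR-253-3p and cel-miR-271, written below without the species prefix. They were chosen by probe name, leaving out the star strands, and the 9 names gave 9 probes of the 154 worm miRNA probes on the array. The series measured total RNA on 6 one-colour arrays (dye Hy3), 1 array for each pairing of 2 strains and 3 exposures. The mutant carries the genotype label ced-1(n1995) I, where ced-1 encodes a receptor that lets cells engulf dying neighbours; its strain is given as MT4930 in one label and as LS292 in the titles, and LS292 is better known as a dys-1 (dystrophin) mutant, so the group is called the mutant here. The other strain was N2, the wild type. About 100000 dauer larvae per container were put on fresh medium and held at 23 °C for 16.5 days, either in a static slot in orbit (1.92 mGy), in a centrifuge slot in orbit that supplied 1 g (2.27 mGy), or in a static slot on the ground, started 2 days later; worms were collected after a further 7 h. The labels give no ages or stages at collection, no dose for the ground arrays, and no repeat samples of a group.

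A miRNA is a short RNA that pairs through its seed, near its 5′ end, with target messages and lowers their output, so miRNAs that share a seed can act on shared targets. The dauer larva and the starved first-stage larva are arrested states governed by insulin signalling and the FOXO factor DAF-16, and the same pathway sets adult lifespan. miR-34 is a conserved miRNA known for its part in DNA damage responses and in ageing. miR-228 has been tied to the longevity response to dietary restriction, and miR-235, the worm member of the miR-92 family, keeps progenitor cells quiescent in starved first-stage larvae. Loss of miR-238 or miR-246 has been found to shorten life, and loss of the miR-239a and miR-239b locus to lengthen it; miR-238, miR-239a and miR-239b form a seed family.

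Values below are the median over the 4 spots of a probe of foreground minus local background intensity, unscaled unless stated. A probe was read against the control-probe limit of its array, the 95th percentile of 476 spots printed for spike-in controls. That limit was 97 on the mutant static array, 75.25 on the mutant centrifuge array and 150 on the mutant ground array, against 14 (static), 20 (centrifuge) and 13.25 (ground) in N2. Control probes themselves had medians of 53 (static), 38 (centrifuge) and 64 (ground) in the mutant and of -1 (static), 5 (centrifuge) and -8 (ground) in N2. Probes with no name in the tables had medians of 62.5 (static), 49.5 (centrifuge) and 68 (ground) in the mutant and of 1 (static), 8 (centrifuge) and -4 (ground) in N2. Below the limit a reading is called non-specific here. Probes differ in how brightly they bind, so levels are compared between arrays for the same probe and not between miRNAs.

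Of the 9 miRNAs, 6 exceeded the control-probe limit on at least 1 mutant array, and 1 did so on an N2 array. On the mutant static array 3 of 9 exceeded it, against 33.8% of all 154 worm probes. On the mutant centrifuge array 6 of 9 did, against 58.4% of all worm probes, and on the mutant ground array 2 of 9, against 23.4%. In N2 the counts were 0 of 9 (static), 1 of 9 (centrifuge) and 0 of 9 (ground), where 17.5%, 20.1% and 19.5% of worm probes exceeded the limit. The shares of the 9 on the mutant arrays lay near those of all worm probes.

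**Figure D1:**
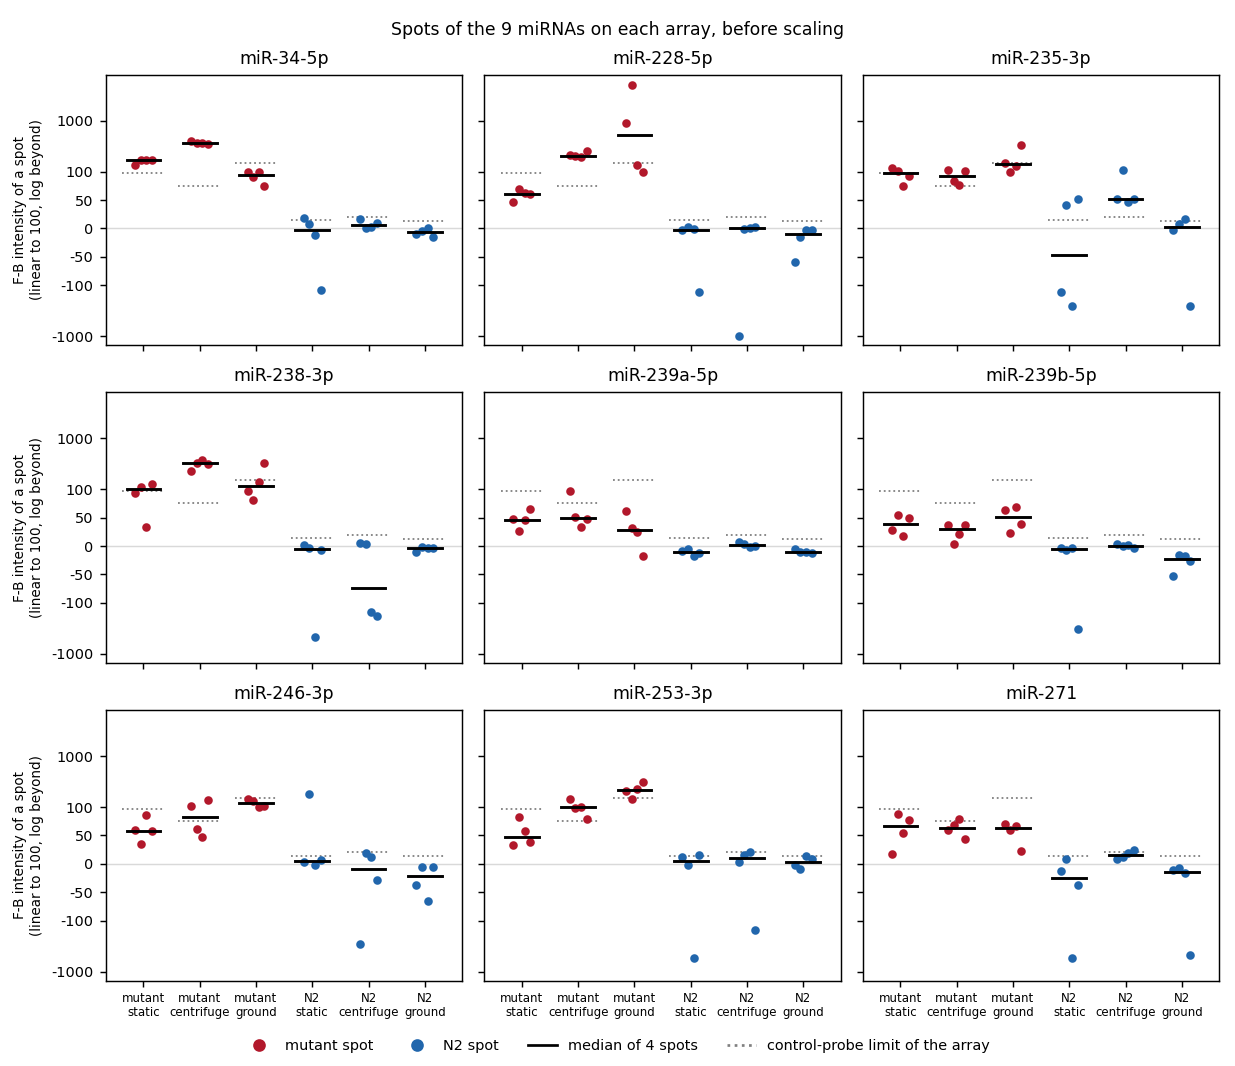
Foreground minus background (F-B) intensity of the 4 spots of each miRNA on the 6 arrays, with the median as a black bar and the control-probe limit of the array as a dotted line; the axis is linear between -100 and 100 and logarithmic beyond. The 4 spots of miR-34-5p lie between 351 and 396 on the mutant centrifuge array, while those of miR-228-5p on the mutant ground array run from 99 to 4885.

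miR-34-5p, the DNA damage miRNA, was brighter on both mutant flight arrays than on the mutant ground array. It read 170.5 in static flight, 369 in centrifuge flight and 95 on the ground in the mutant, and -2 (static), 6 (centrifuge) and -7 (ground) in N2. Its spots were tight: they ran from 135 to 173 in static flight, from 351 to 396 in centrifuge flight and from 74 to 100 on the ground in the mutant, so the 3 sets of spots did not overlap. The ground value lay below the control-probe limit of 150, and both flight values lay above theirs. All 3 N2 medians lay below their limits, so a difference between exposures was not detectable there; the 4 static spots ran from -127 to 18.

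After scaling, which sets the arrays to a shared level over 8 worm probes that read 50 or more on all 6 arrays, miR-34-5p stood at 254 (static), 122 (centrifuge) and 88.1 (ground) in the mutant. The log2 difference of static flight from ground was 1.53 (technical SE 0.13), and that of centrifuge flight from ground was 0.46 (technical SE 0.11). The technical SE comes from the 4 spots of each array and covers neither the scaling nor the spread between samples; with 1 array against 1 there is no test of these differences. A series table whose labels conflict with the raw tables is left aside here. Static against ground stayed above 0 under the 11 other settings, between 0.55 (mean of the spots) and 2.03. Detection above the control probes and a floor of 20 left the value at 1.53, so they are no separate check. The difference fell below 2-fold with no scaling (0.84), spot means (0.55), normexp background correction (0.97) and scaling within each strain (0.98). Centrifuge against ground ran from -0.083 (mean of the spots) to 1.96 (no scaling).

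The order of the flight arrays for miR-34-5p rested on the scaling. Static flight minus centrifuge flight gave 1.06 in log2 with scaling and -1.11 without it, and -0.51 with scaling within each strain. The scale factor was 1.49 for the mutant static array and 0.329 for the mutant centrifuge array. Among the 154 worm probes, a measure that no scale factor can change, miR-34-5p ranked 28th in static flight, 36th in centrifuge flight and 61st on the ground in the mutant, and 83rd (static), 79th (centrifuge) and 81st (ground) in N2. The mutant ground rank and the N2 ranks are those of readings below the control-probe limit, so no order is read within them.

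miR-253-3p went the other way in the mutant and was dimmer on both flight arrays than on the ground array. It read 48 (static), 100 (centrifuge) and 212 (ground) in the mutant, and 4.5 (static), 9.5 (centrifuge) and 3.5 (ground) in N2. The mutant ground spots, from 144 to 304, lay above the static spots, from 33 to 82, and above the centrifuge spots, from 79 to 141. After scaling the static value was 71.5 against 196.5 on the ground (log2 difference -1.46, technical SE 0.36), and the static reading lay below the control-probe limit. The centrifuge reading exceeded its control-probe limit and had an unscaled log2 ratio of -1.08 to ground; scaling put it at the floor of 50 set for scaled intensities, which gave -1.97. Leaving aside a series table whose labels conflict with the raw tables, the 11 other settings gave -2.33 to -0.87 for static and -2.58 to -0.97 for centrifuge flight against ground. The rank of the probe was 129th in static flight, 71st in centrifuge flight and 24th on the ground in the mutant.

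The other arm of the same precursor, miR-253-5p, is listed as the star strand in the older probe names and was not among the 9. It read 65 (static), 42.5 (centrifuge) and 85.5 (ground) in the mutant, and -3.5 (static), -55 (centrifuge) and -6 (ground) in N2, all below the control-probe limits. Of its mutant ground spots 1 exceeded the limit, at 214.

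miR-228-5p, the dietary restriction miRNA, had its highest median on the mutant ground array, but that value came from 4 spots that disagreed. It read 61.5 (static), 203.5 (centrifuge) and 516 (ground) in the mutant, and -2 (static), 0 (centrifuge) and -9.5 (ground) in N2. The ground spots read 898, 4885, 134 and 99, so 2 of the 4 exceeded the limit of 150 and their mean was 1504. The static spots ran from 47 to 70, below the static limit of 97, and the centrifuge spots from 190 to 259. After scaling, miR-228-5p stood at 91.7 in static flight and 67.0 in centrifuge flight, against 478 on the ground. The log2 differences from ground were -2.38 for static (technical SE 1.32) and -2.84 for centrifuge flight (technical SE 1.31), where the ground spots had an SD of 2284. Static spots lay below all ground spots before scaling, whereas centrifuge spots overlapped with them. Between the flights the unscaled values put static below centrifuge (log2 ratio -1.73), while the scaled values put it above (0.45, technical SE 0.16).

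miR-238-3p, whose loss shortens life, was brightest before scaling on the mutant centrifuge array. It read 102.5 (static), 323.5 (centrifuge) and 117 (ground) in the mutant, and -5.5 (static), -74 (centrifuge) and -3 (ground) in N2. The mutant ground value lay below its control-probe limit of 150. The mutant static value lay just above its limit of 97, with 2 of 4 spots above. The centrifuge spots, from 230 to 368, lay above the static spots, from 33 to 129, and overlapped with the ground spots, from 81 to 326. After scaling the 3 mutant values came to 153 (static), 107 (centrifuge) and 108 (ground). The scaled log2 difference of static from ground was 0.49 (technical SE 0.63) and that of centrifuge from ground -0.026 (technical SE 0.47), both smaller than the technical error. Its rank moved little, at 46th (static), 38th (centrifuge) and 48th (ground) in the mutant, where the ground rank is that of a reading below the limit.

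miR-235-3p, the miRNA of starved larvae, was the only one of the 9 above the control-probe limit on an N2 array. It read 97.5 (static), 93 (centrifuge) and 139 (ground) in the mutant. In N2 it read -46 (static), 52 (centrifuge) and 2 (ground), and the 4 centrifuge spots read 52, 109, 47 and 52, all above the limit of 20. N2 static spots were split, at -134, 42, -259 and 52, so the median there stands for neither pair. After scaling, N2 centrifuge flight stood at 143, with both other N2 arrays at the floor, which gave log2 differences of 1.52 from ground and -1.52 for static minus centrifuge. The 2-fold call was lost under 6 of 12 other settings: without scaling and with the same floor the difference from ground was 0.06 in log2, and with normexp -0.01. The value of 0.06 compares a reading of 52 with the floor of 50, so it was fixed by the floor whatever the ground reading. Before scaling and floor, the N2 ground spots, from -257 to 17, lay below all 4 centrifuge spots. The rank of miR-235-3p among the 154 probes was 126th (static), 19th (centrifuge) and 47th (ground) in N2, where the static and ground readings lay below the limit.

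In the mutant, the unscaled log2 ratio of miR-235-3p was -0.51 for static against ground, -0.58 for centrifuge against ground and 0.07 for static against centrifuge, and the static and ground spots overlapped. The ground reading of 139 lay below its control-probe limit of 150. The static reading of 97.5 lay just above its limit of 97, with 2 of 4 spots above. The scaled static and ground values were 145 and 129 (log2 difference 0.17, technical SE 0.40). The mutant centrifuge value of 93, above its control-probe limit, was put at the floor by the scaling, so the scaled log2 differences of -1.37 for centrifuge against ground and 1.54 for static against centrifuge rest on the scale factor. On that array the floor corresponds to an unscaled intensity of 152, and 3 miRNAs that exceeded the control-probe limit there (miR-235-3p, miR-246-3p and miR-253-3p) were put at the floor.

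miR-246-3p, another miRNA whose loss shortens life, exceeded the limit on the mutant centrifuge array alone, and narrowly. It read 58 (static), 82 (centrifuge) and 120 (ground) in the mutant, and 4.5 (static), -8.5 (centrifuge) and -22 (ground) in N2. Its ground spots, from 102 to 147, lay above the static spots, from 35 to 86, but below the ground limit of 150. The scaled values were 86.4 and 111 for static flight and ground (log2 difference -0.36, technical SE 0.29), and centrifuge against ground gave -1.15 with the flight value at the floor, where the unscaled log2 ratio was -0.55. A single N2 static spot read 184 while the other 3 read between -3 and 6.

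The remaining 3, miR-239a-5p, miR-239b-5p and miR-271, stayed below the control-probe limit on every array. miR-239a-5p read 46.5 (static), 50 (centrifuge) and 28.5 (ground) in the mutant and -10 (static), 2.5 (centrifuge) and -10 (ground) in N2. miR-239b-5p, from the same locus, read 39.5 (static), 29.5 (centrifuge) and 51 (ground) in the mutant and -5 (static), 1 (centrifuge) and -22 (ground) in N2. miR-271 read 66.5 (static), 63.5 (centrifuge) and 63 (ground) in the mutant, the narrowest spread of the 9, and -25.5 (static), 15.5 (centrifuge) and -14 (ground) in N2. For these 3 a signal above the control probes was not detectable, and no comparison between exposures is drawn from them. The seed family of miR-238, miR-239a and miR-239b was thus measured in the mutant through miR-238-3p only, and above the limit on the 2 flight arrays only.

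**Figure D2:**
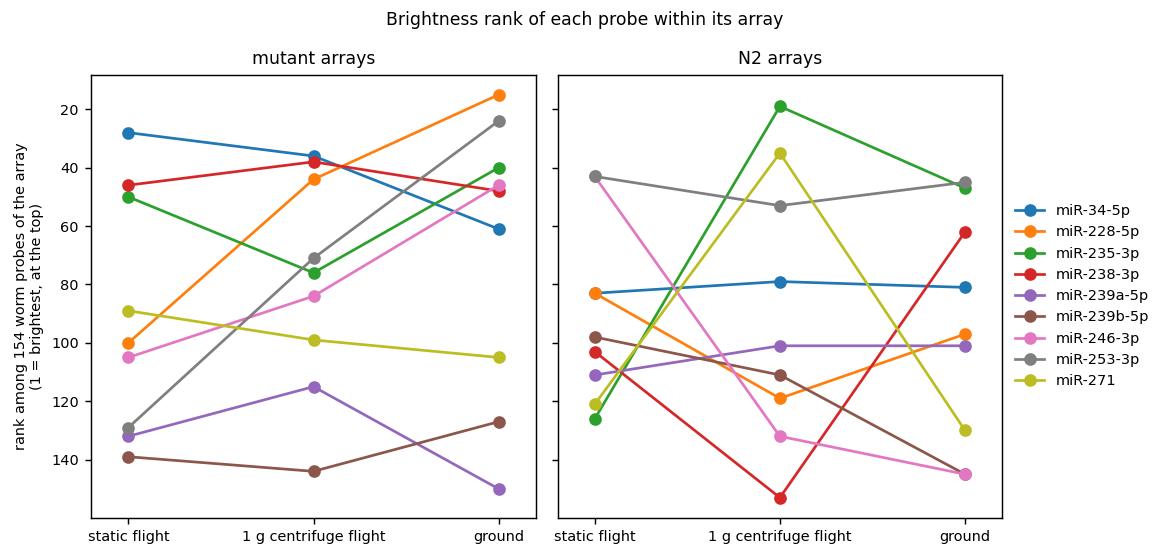
Rank of each of the 9 probes by brightness among the 154 worm probes of the same array, with 1 the brightest at the top, for the 3 mutant arrays (left) and the 3 N2 arrays (right). From static flight to ground in the mutant, miR-253-3p stands at ranks 129, 71 and 24 and miR-34-5p at 28, 36 and 61. In N2 nearly all 9 read at the non-specific level, so their ranks carry no order. Mutant readings below the control-probe limit, such as miR-253-3p in static flight and miR-34-5p on the ground, likewise rank among non-specific readings.

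Counted over the 9 miRNAs in the mutant, static flight against ground had 1 at least 2-fold higher and 2 at least 2-fold lower after scaling, and 0 higher and 3 lower without scaling. Over all 127 worm probes compared, 27.6% were higher and 7.87% were lower. The 7 compared miRNAs of the list had a median log2 difference of 0.17, against 0.59 over all probes compared. Centrifuge flight against ground had 0 higher and 4 lower of the 9, where 9.76% of 123 probes were higher and 20.3% lower, with medians of -1.15 for the list and -0.40 for all. Of those 4, 3 were readings above the control-probe limit that scaling put at the floor, and without scaling the split was 2 higher and 2 lower; quantile normalization and the authors' normalized intensity each gave 1 higher and 2 lower. Static against centrifuge flight had 2 higher and 0 lower, against 40.7% and 0.813%, with medians of 0.89 and 0.85, whereas the split was 0 higher and 4 lower without scaling and 0 higher and 2 lower with scaling within each strain. Both flight comparisons share 1 ground array. The shares over all probes are those after scaling. None were counted under the other settings, so the counts there are not read as particular to the 9.

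In N2, static flight against ground left all 9 at the floor on both arrays, where 10.0% of 20 compared probes were higher and 40.0% were lower. Centrifuge flight against ground gave 1 higher (miR-235-3p), where 37.5% of 24 probes were higher and 16.7% lower. Static against centrifuge flight gave 1 lower (miR-235-3p again), where 4.76% of 21 probes were higher and 23.8% lower. An exposure effect on the other 8 was not detectable in N2. Spots below -100, where the local background exceeded the spot, made up 0 of the 36 spots of the 9 miRNAs on each mutant array, and 8 (static), 5 (centrifuge) and 2 (ground) of 36 in N2. Of all 616 worm spots, 0 (static), 1 (centrifuge) and 9 (ground) did so in the mutant. In N2 the counts were 139 (static), 58 (centrifuge) and 55 (ground) of 616, so low spots were not particular to the 9.

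**Figure D3:**
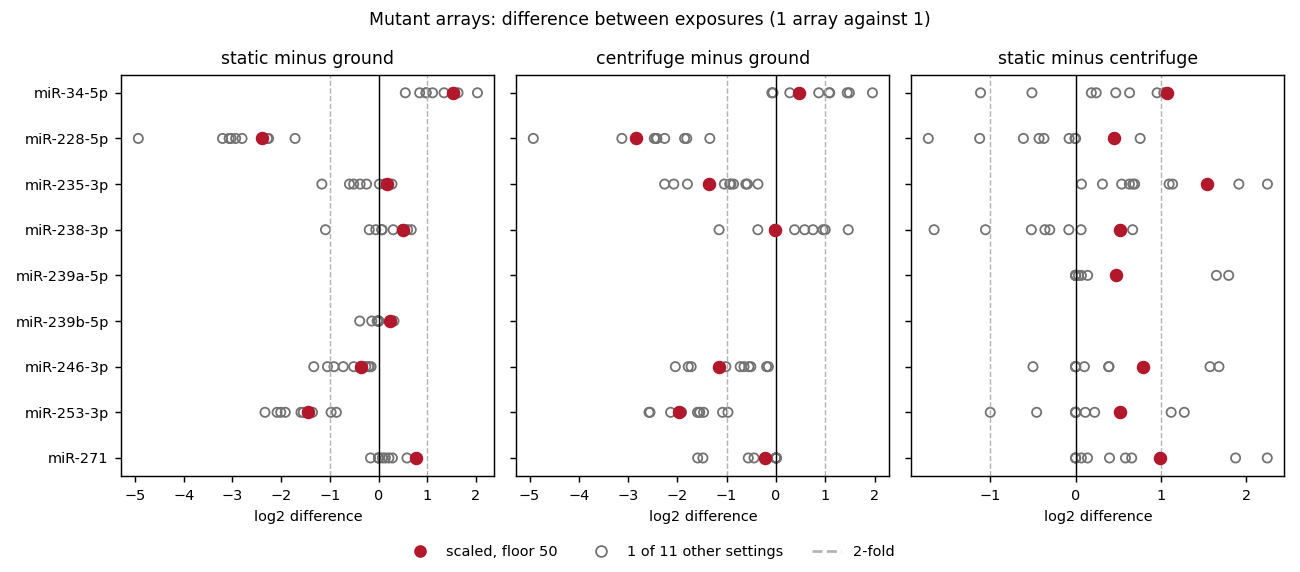
Log2 difference of each miRNA between exposures on the mutant arrays, 1 array against 1: filled points give the scaled values with a floor of 50, open points 11 other ways of processing, dashed lines 2-fold. Open and filled points of miR-34-5p lie right of 0 for static minus ground (1.53 with scaling), those of miR-253-3p left of 0 for both flights minus ground, and several miRNAs fall on both sides of 0 for static minus centrifuge.

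Exposure was tested over both strains in limma's additive model of strain and exposure, fitted across the 126 worm probes at 50 or more on at least 2 arrays. Of the 9 miRNAs 7 entered; miR-239a-5p and miR-239b-5p did not. Of the 7, 0 passed a Benjamini-Hochberg adjusted p of 0.05 in limma for static against ground, centrifuge against ground or static against centrifuge, where 0.0% of the 126 passed in each. At an unadjusted p under 0.05 the counts were 0 of the 7 in each comparison, against 2.38%, 0.794% and 0.0% of all 126. Estimates for static minus ground ran from -1.19 (miR-228-5p) to 0.76 (miR-34-5p), and those for centrifuge minus ground from -1.42 (miR-228-5p) to 0.23 (miR-34-5p). Those for static minus centrifuge ran from 0.01 (miR-235-3p) to 0.53 (miR-34-5p). The model takes the strains as replicates, and for 6 of the 7 no N2 array rose above the floor. For those 6 the estimates average a mutant difference with an N2 difference of 0. Their residual error is built from the same mutant differences and grows with them. An unadjusted p under 0.05 in limma was therefore out of reach for those 6, whatever the mutant values. Their lack of calls does not show an absence of change.

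Between the strains, all 9 miRNAs read higher on each of the 3 mutant arrays than on any of the 3 N2 arrays before scaling, as did 90.9% of all 154 worm probes. The filter for limma's fit let 6 of the 7 in through the mutant arrays alone, with all N2 readings below 50 and at the floor, so for those the estimate and its p are set by the filter and the floor, and nothing is read from them. In that limma fit 0 of the 7 passed an adjusted p of 0.05 for mutant against N2, and 2 had an unadjusted p under 0.05, where 19.8% and 28.6% of the 126 did. Of the 126, 100 had likewise entered with all N2 readings below 50. Whether all of those N2 readings lay at the floor was not counted.

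Estimates of mutant minus N2 ran from 0.40 (miR-271, SE 0.38) to 1.52 (miR-228-5p, SE 0.63). Both ends, and the lowest limma adjusted p of 0.0604 (miR-238-3p), belong to miRNAs let in through the mutant arrays alone. They are given as a record of the fit and not as strain differences. miR-238-3p had log2 values of 6.92 ± 0.29 in the mutant and 5.64 ± 0.00 in N2 (SD, n = 3 arrays each), and miR-34-5p 7.12 ± 0.78 in the mutant and 5.64 ± 0.00 in N2, where the SD of 0.00 is the floor. miR-235-3p, which had an N2 array above 50, stood at 6.61 ± 0.84 in the mutant and 6.15 ± 0.88 in N2, a difference of 0.46 (SE 0.69, limma adjusted p = 0.616). Its N2 static and ground values were at the floor as well.

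Direction and calls both turned with the processing. Normexp, a model-based correction in place of plain subtraction, was run with an offset of 50, which lifts dim readings before the arrays are scaled. With it all 7 estimates were below 0, and 5 passed in limma as lower in the mutant (miR-235-3p, miR-238-3p, miR-246-3p, miR-253-3p and miR-271, adjusted p from 0.000749 to 0.0470). All 7 had the same SE of 0.487 there. These p-values thus rest on a variance pooled over probes and not on the spread of each miRNA. With a floor of 20, 4 passed as higher in the mutant (miR-34-5p, miR-228-5p, miR-238-3p and miR-253-3p, limma adjusted p from 0.00123 to 0.0473). Their SE was again a shared value, 0.763. With scaling within each strain those 4 and miR-235-3p passed as higher (limma adjusted p from 0.000394 to 0.0470). Without scaling miR-34-5p and miR-235-3p did, and with 75th percentile scaling miR-238-3p did. Apart from miR-235-3p, all of these had entered through the mutant arrays alone, and no strain difference is read from their calls. miR-235-3p would also have met the filter on its mutant readings alone (97.5, 93 and 139). Its N2 static and ground readings lay at the floor, so no strain difference is read from its calls either. Over all 126, the 24 higher and 1 lower calls became 13 higher and 16 lower with 75th percentile scaling and 8 higher and 10 lower with quantile normalization. They became 8 higher and 86 lower with normexp, and 47 higher and 2 lower with a floor of 20. Scaling within each strain gave 63 higher and 1 lower, and no scaling 35 higher and 0 lower. The calls among the 7 are therefore not read as particular to them. The mutant arrays and the N2 arrays come from separate raw tables, and whether strain or table sets a difference cannot be told apart. Control probes, too, had medians of 38 to 64 on the mutant arrays and of -8 to 5 on the N2 arrays.

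Another 17 miRNAs tied to lifespan, stress or arrest were set beside the 9, among them miR-71-5p, lin-4-5p, let-7-5p and miR-80-3p. miR-71-5p, a lifespan and dauer survival miRNA, read 3387.5 (static), 10498 (centrifuge) and 861 (ground) in the mutant, and 1 (static), -8.5 (centrifuge) and -5 (ground) in N2. lin-4-5p, which times larval stages, read 175.5 (static), 650.5 (centrifuge) and 141 (ground) in the mutant, and 1.5 (static), 7 (centrifuge) and -8.5 (ground) in N2. let-7-5p, another timing miRNA, was read in both strains, at 322 (static), 1532 (centrifuge) and 1042 (ground) in the mutant and 343 (static), 479 (centrifuge) and 367 (ground) in N2, and its strain estimate was -0.66 (SE 0.45, limma adjusted p = 0.374). In the strain fit 9 of the 16 tested passed, each with the mutant above N2, where 19.8% of all 126 passed. Of those 9, 8 entered through the mutant arrays alone, miR-71-5p and lin-4-5p among them, and nothing is read from their calls. The 17 were also chosen with earlier results of these data known, so the higher share is not read as a trait of the list. Leaving out either static array left 0 of all 126 passing. Of the 17, the number above the control-probe limit was 13 (static), 15 (centrifuge) and 9 (ground) in the mutant, and 4 on each N2 array. Over all 154 worm probes the shares were 33.8% (static), 58.4% (centrifuge) and 23.4% (ground) in the mutant. In N2 they were 17.5% (static), 20.1% (centrifuge) and 19.5% (ground). For the 3 exposure comparisons 0 of the 16 passed, where 0.0% of all 126 did. Of the 16, 12 entered through the mutant arrays alone, with N2 at the floor, so those could not pass this test either. The scaling used 2 of the 17, namely miR-84-5p and let-7-5p.

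The worm miRNAs most alike in pattern were sought among the 126 tested, by the mean absolute difference over the 6 arrays of log2 values centred on each miRNA's own mean. miR-34-5p and miR-238-3p shared the same nearest pair, miR-51-5p (distances of 0.157 and 0.117) and miR-83-3p (0.178 and 0.151), where the median distances to all others were 0.620 and 0.472. miR-228-5p lay nearest to miR-35-3p (0.178) and, of the 9 themselves, miR-253-3p (0.344), against a median of 0.833. miR-235-3p lay nearest to miR-240-3p (0.305) and miR-1824-5p (0.371), against a median of 0.605. The nearest to miR-246-3p were miR-1019-3p (0.025) and miR-264 (0.039), and those to miR-271 were miR-70-3p (0.005) and miR-49-3p (0.028). Floors shared by dim probes on the N2 and mutant centrifuge arrays make such distances small.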

How the data were processed

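The authors deposited intensity for each spot, before and after subtraction of the local background, per the file headers; scanner and image software are not given in the sources used here. A further deposited table holds the authors' intensity per probe, which equalled the median of the spots on 2314 of 2314 probe identifiers of each array (tolerance 0.01), and a normalized intensity, the same value divided by a factor per array. Its 12 other value columns were not used. The columns of the series value table equal, within a relative tolerance of 0.0001, the authors' normalized intensity of other arrays than their labels name, so the raw tables' sample names were used.

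Here the medians were scaled by each array's median over 8 worm probes, floored at 50, put on the log2 scale and fitted with limma 3.58.1 in R 4.3.3 (strain + exposure, 2 residual degrees of freedom). Repeats were technical and not of samples, per the labels. The residual of the fit is therefore how far the exposure differences depart between the strains. It mixes array-to-array spread, which may be technical, with any response that differs by strain. A p-value here covers that mixture and not a spread between repeat samples, and the number of arrays limits the precision. Within a strain a miRNA was counted at 2-fold or more with the brighter array at 50 or more. In data simulated for mutant minus N2 over 126 probes, 87.2% of 4-fold changes were recovered, with 1.2 false calls per draw. The simulation put normal noise around each probe's mean and had no floor, filter or scaling. In the real data 100 of the 126 entered through the mutant arrays alone, so these rates do not carry over to them. The miRNAs named are the 9 of the list, 17 others tied to ageing, stress or arrest, and the 2 most alike to each of the list detected on 3 or more arrays. The members and lists were chosen with earlier results of these data known. Mature sequences were not used here.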

Additional observations from a re-analysis of the deposited data

Results flagged for a closer look

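miR-235-3p had scaled differences of opposite sign in the strains under the same contrast. Centrifuge flight minus ground was -1.37 in log2 in the mutant and 1.52 in N2, and static flight minus centrifuge flight was 1.54 in the mutant and -1.52 in N2. With 1 array per strain and exposure the difference between the strains was not tested. In each of the 4 values 1 side was at the floor, and the mutant centrifuge reading of 93 lay above its control-probe limit and reached the floor through its scale factor. With no scaling and the same floor, these contrasts gave -0.58 and 0.07 in the mutant and 0.06 and -0.06 in N2. Those N2 values compare a centrifuge reading of 52 with the floor of 50, so the floor kept them small.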

How the results depend on the processing

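No pairing by replicate was possible because the labels give no replicate numbers and each group holds 1 array. The model with exposure as a term already pairs the strains within each exposure. Leaving out 1 array therefore removes both arrays of that exposure from the strain estimate. Control-probe median subtraction and scaling within each strain were chosen after seeing the data; the others were planned. For mutant against N2, 25 worm miRNAs passed in limma's fit, against 0 with the series value table as labelled, 94 with normexp (8 higher, 86 lower), 49 with a floor of 20, 4 with a floor of 100, 13 with no filter, 2 when detected on all 6 arrays, 12 with the control-probe median subtracted and 64 with scaling within each strain. The 24 higher and 1 lower became 13 and 16 with 75th percentile scaling, 8 and 10 with quantile normalization and 35 and 0 with no scaling. Leaving out 1 array at a time gave 0 to 10, with 0 without the mutant static or the N2 static array. For exposure, static against ground gave 1 when detected on all 6 arrays and 2 with scaling within each strain, and static against centrifuge gave 1 with normexp, against 0 in each.

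Strain estimates turned negative with normexp for miR-34-5p (-0.91), miR-228-5p (-0.88), miR-235-3p (-1.51), miR-238-3p (-1.03), miR-246-3p (-1.70), miR-253-3p (-1.54) and miR-271 (-1.86). With the series value table as labelled they were -0.17, -0.77, -0.84, -0.084, -0.34, -0.53 and -0.19 in the same order; its columns hold other arrays than their labels name. 75th percentile scaling gave -0.43 for miR-235-3p and -0.34 for miR-271, quantile normalization -0.56 for miR-235-3p, -0.033 for miR-246-3p and -0.42 for miR-271, and subtracting the control-probe median -0.029 for miR-235-3p. Leaving out 1 array at a time gave miR-34-5p 1.05 to 1.81, miR-228-5p 0.65 to 2.07, miR-235-3p -0.076 to 1.45, miR-238-3p 1.10 to 1.36, miR-246-3p 0.39 to 0.97, miR-253-3p 0.26 to 1.25 and miR-271 0.11 to 0.61; the lowest values of miR-228-5p, miR-246-3p and miR-253-3p came without a ground array, the others without a static array. Except for the series table, the cause was not tested.

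In the mutant, static against ground had 3 of the 9 at 2-fold or more (1 higher, 2 lower), against 3 lower with no scaling, 1 with normexp and 5 with spot means. Centrifuge against ground had 4, all lower, against 2 higher and 2 lower with no scaling, 1 higher and 4 lower with scaling within each strain, 1 higher and 2 lower with quantile normalization, the authors' normalized intensity or the control-probe median subtracted, 6 lower with normexp or a floor of 20, 5 lower with spot means, 2 lower with 75th percentile scaling or detection above the control probes, 1 with a floor of 100 and 0 with the series table. Static against centrifuge had 2 higher, against 4 lower with no scaling, 2 lower with scaling within each strain, 4 higher with normexp or a floor of 20, 1 with the authors' normalized intensity, the mean of the spots or a floor of 100, and 0 with 75th percentile scaling, quantile normalization or the control-probe median subtracted. For miR-34-5p that difference was -1.11 with no scaling and -0.51 with scaling within each strain, and for miR-228-5p static against ground was 0.90 with the series table. In N2, the 1 call (miR-235-3p) in centrifuge against ground and in static against centrifuge became 0 with no scaling, normexp, a floor of 100, the authors' normalized intensity or scaling within each strain. With no scaling that loss was fixed by the floor of 50, as the centrifuge reading was 52. The series table gave 2, 2 and 3 for static against ground, centrifuge against ground and static against centrifuge, against 0, 1 and 1. For miR-235-3p, N2 centrifuge against ground was -0.012 with normexp, and N2 static against centrifuge 0.28 with the series table. Signal over background limits these comparisons: most of the 9 read at or below the control-probe limit on most arrays. Shares of all worm probes at 2-fold or more were not counted under the other settings, so these counts are not read as particular to the 9.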
